A study of Mus musculus with 39 samples.

Results

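Skeletal muscle and white fat are both targets of glucocorticoids, and here their transcriptomes were set against each other in mice given dexamethasone (Dex), a synthetic ligand of the glucocorticoid receptor (GR). All 5 muscle and all 4 white adipose tissue (WAT) RNA-seq libraries of the 3-week Dex experiment were taken, 9 of the 39 samples of the series, with genotype as a covariate. The mice were wild-type (WT, E47+/+) or lacked E47 in the whole body (E47KO, E47-/-). E47 is an E protein, a basic helix-loop-helix (bHLH) factor and a splice product of Tcf3. Muscle was quadriceps from 2 WT and 3 E47KO libraries, and WAT was the epididymal depot from 2 WT and 2 E47KO libraries. All were male C57BL/6 mice of 10 to 16 weeks on chow, with Dex at 10 µg/ml in the drinking water for 3 weeks, and tissue was collected after a glucose tolerance test, that is after an overnight fast and an injection of glucose. No vehicle-treated muscle or WAT was analysed here, so every difference below is between tissues under Dex and none is an effect of Dex. The titles reuse replicate numbers in both tissues, but the further number in each deposited name is not shared between them, and nothing says that 1 mouse gave both tissues. Tissue and animal therefore cannot be told apart, and p-values measure the spread between these libraries.

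A muscle fibre is a fused cell filled with sarcomeres, in which myosin motors pull on actin when calcium leaves the sarcoplasmic reticulum, and it burns glucose, glycogen and fatty acids to do so. A white adipocyte stores triglyceride in a droplet coated by perilipin, releases fatty acids by lipolysis, and secretes hormones such as leptin and adiponectin. Excess glucocorticoid wastes muscle through ubiquitin ligases and reduces insulin-driven glucose uptake in both tissues. In bulk tissue, fewer cells of a type and less RNA per cell cannot be told apart.

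Muscle libraries held 40375225 to 45967218 counts in genes and WAT libraries 34468535 to 42958674, with 20881 to 21188 and 22419 to 23362 genes detected. Levels are in CPM, each gene's count per library total after trimmed-mean (TMM) scaling, and where several values follow each other they stand in the order WT 1, WT 2, E47KO 1, E47KO 2 and E47KO 3 for muscle and WT 1, WT 2, E47KO 2 and E47KO 3 for WAT. The tissues matched their labels: the summed CPM of 12 muscle fibre genes was 236400 to 334480 in muscle and 36.0 to 87.0 in WAT, and that of 11 adipocyte genes was 618 to 2022 in muscle and 40819 to 46537 in WAT. Genes of epididymis epithelium summed to 0.163 to 0.423 CPM over all 9 libraries, and germ cell genes of the testis to 0.0369 to 0.293 CPM in 8 libraries and 2.32 CPM in WAT E47KO 3. Tcf3 counts do not check the genotype, since E47 is 1 splice form of the gene. A multidimensional scaling was built on the genes that differed most in each pair of libraries. Its first dimension held 89.8% of the variation in those distances and separated the tissues. The second, with 3.75%, spread the muscle libraries, with WT 2 at -2.03 and E47KO 3 at -0.51 against 0.71 to 0.91 in the other 3.

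Most expressed genes differed between the tissues. Of 16398 genes tested, 13556 passed an adjusted p of 0.05 (82.7%), 6410 of them higher in muscle (39.1%) and 7146 higher in WAT (43.6%). At a difference of at least 2-fold, 9296 passed (56.7%), of which 4130 were higher in muscle (25.2%) and 5166 higher in WAT (31.5%), and at 8-fold 1257 and 1544. The libraries of the tissues did not overlap for 12518 genes (76.3%), 5999 with muscle above WAT (36.6%) and 6519 with WAT above muscle (39.8%). The median absolute log2 fold change was 1.21, and the counts of the gene groups below are read against these shares. The balance of the directions depended on the scaling. The 10 genes with most counts took 24.6% to 29.6% of counts in muscle and 16.2% to 21.3% in WAT. Over all genes the median log2 fold change of muscle over WAT was -0.11. With library totals alone as the scale, log2 fold changes lay 0.89 lower at the median, 3449 genes were higher in muscle and 10667 higher in WAT, so a gene higher in muscle by less than that amount can turn under that scale.

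**Figure D1:**
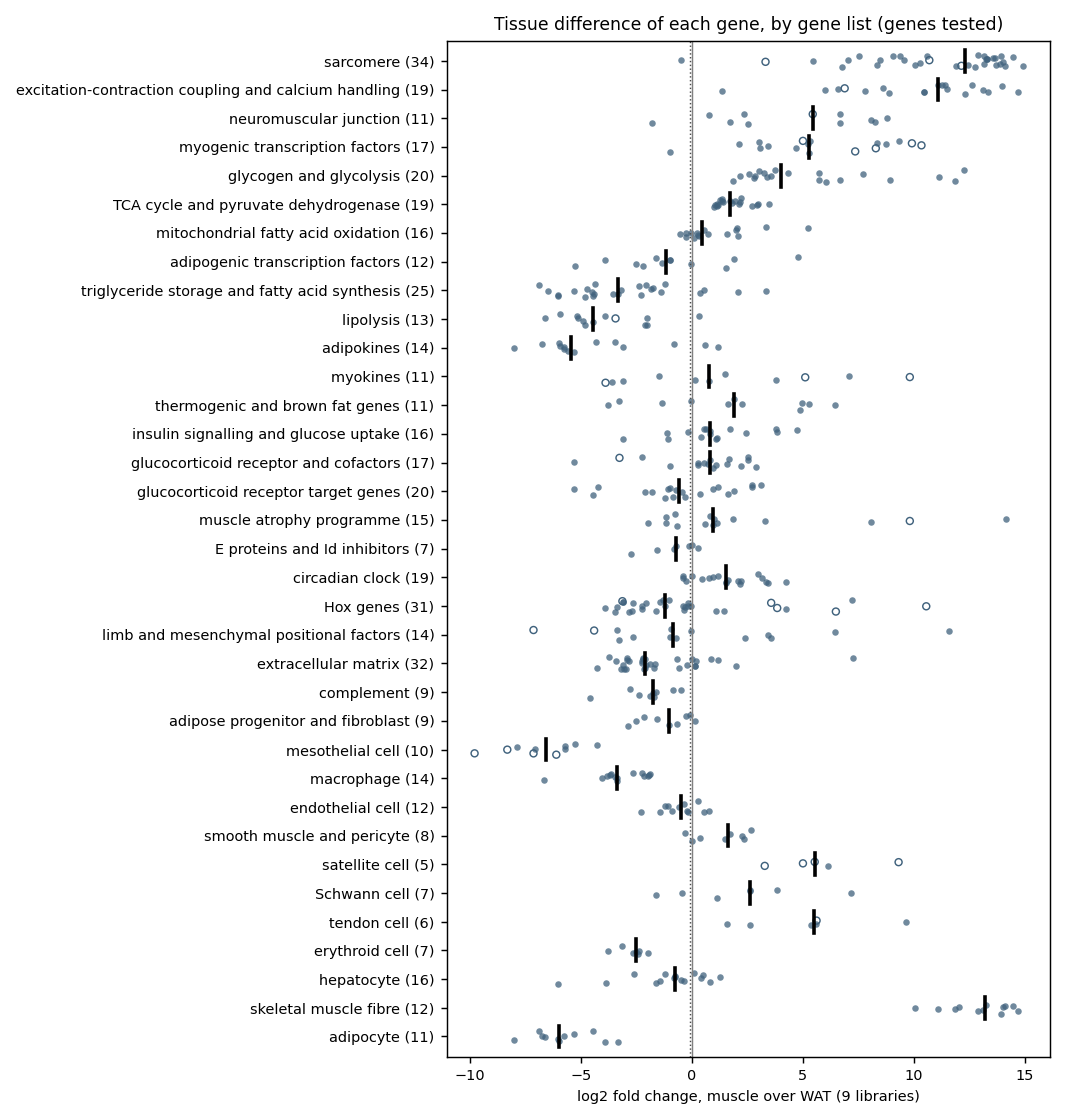
Log2 fold change of muscle over WAT for every tested gene of each list with at least 5 tested genes, 1 point per gene and the number tested in brackets. Filled points are fitted values, open points are genes at 3 counts or fewer in every library of a tissue drawn at their lower bound, black bars are list medians with those genes at their bound, and the dotted line is the median of all genes tested, -0.11. The muscle fibre markers (median 13.20) and sarcomere genes (12.28) sit furthest to the right, and mesothelial (-6.60) and adipocyte genes (-6.00) furthest to the left.

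Genes of contraction, calcium pumping and energy supply held high levels in muscle and wide gaps to WAT. Myh4, the fast type IIb myosin heavy chain, was at 69383, 134200, 100860, 87238 and 108170 CPM in muscle against 3.79, 5.46, 3.47 and 4.92 CPM in WAT. Atp2a1, the fast-fibre calcium pump SERCA1, was at 44587, 53722, 44549, 43065 and 50551 CPM against 1.77, 2.03, 1.31 and 2.15 CPM. Ckm, the muscle creatine kinase that buffers ATP, was at 10377, 15093, 11017, 10823 and 13368 CPM against 0.707, 0.615, 0.535 and 0.879 CPM. For all 3 genes every muscle library lay far above every WAT library, and the fitted log2 fold changes were 14.48 ± 0.40 (SE, adjusted p = 9.31e-10) for Myh4, 14.68 ± 0.29 (adjusted p = 1.77e-10) for Atp2a1 and 14.11 ± 0.29 for Ckm. Of 34 sarcomere genes tested, 33 were higher in muscle (97.1%, beside 39.1% of all genes), none was higher in WAT and 1 did not pass, and the libraries did not overlap for 33 (beside 36.6% of all genes). Their median log2 fold change was 12.59, or 12.28 with the 3 genes near 0 in WAT set at their lower bound, beside -0.11 over all genes. Acta1, skeletal α-actin, was at 38432, 47722, 32178, 36350 and 39394 CPM against 20.7, 32.4, 25.2 and 69.4 CPM. WAT E47KO 3 was the highest WAT library and still far below every muscle library (10.05 ± 0.50). Desmin (Des), the intermediate filament that ties sarcomeres together, averaged 5193 CPM against 16.3 CPM.

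Within muscle, the slow-fibre genes were far more variable than the fast ones. Myh7, the slow type I myosin heavy chain, was at 537, 49.4, 375, 307 and 3.18 CPM in muscle and at no more than 0.0410 CPM in any WAT library, at least 4493-fold higher in muscle on the means. Tnnt1, slow troponin T, was at 122, 13.9, 85.9, 70.0 and 6.19 CPM, and Tnni1, slow troponin I, at 85.2, 8.98, 58.7, 49.1 and 2.10 CPM. For each of these, and for Tnnc1, Myl2 and Myl3, WT 2 and E47KO 3 were the 2 lowest of the muscle libraries, 1 of each genotype, and all 5 muscle libraries still lay above WAT. The deposited names of these 2 libraries carry consecutive numbers, but the number of WT 1 directly precedes theirs, so the numbers do not set them apart. Whether the numbers mark a batch is not stated. The highest muscle library exceeded the lowest 169-fold for Myh7, 40.5-fold for Tnni1 and 75.7-fold for Myl3, against 1.93-fold for Myh4 and 1.25-fold for Atp2a1. The oxidative type IIa myosin Myh2 went the same way, at 3659, 890, 5170, 4479 and 1572 CPM, and so did myoglobin (Mb), at 2349, 1083, 2467, 2883 and 1428 CPM. Of the exon bases of Mb, 31.9% are shared with other genes. Tpm3, the slow-fibre tropomyosin that is also made by non-muscle cells, was the sarcomere gene that did not pass, at 175, 42.2, 139, 124 and 35.4 CPM in muscle and 148, 135, 153 and 140 CPM in WAT. The tissues overlapped and the log2 fold change was -0.48 ± 0.43 (adjusted p = 0.319). Atp2a2, the slow-fibre and housekeeping calcium pump SERCA2, was at 377, 82.1, 298, 297 and 48.1 CPM against 84.9, 84.4, 83.2 and 91.9 CPM, so that 3 muscle libraries lay above WAT and WT 2 and E47KO 3 below it. Tnnc2, fast troponin C, was listed at only 0.314 to 0.815 CPM in muscle, beside 22317 to 28910 CPM for its partner Tnnt3 and 9361 to 12382 CPM for Tnni2. Of its exon bases, 74% are shared with Ube2c in the annotation, so its counts are uncertain.

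**Figure D2:**
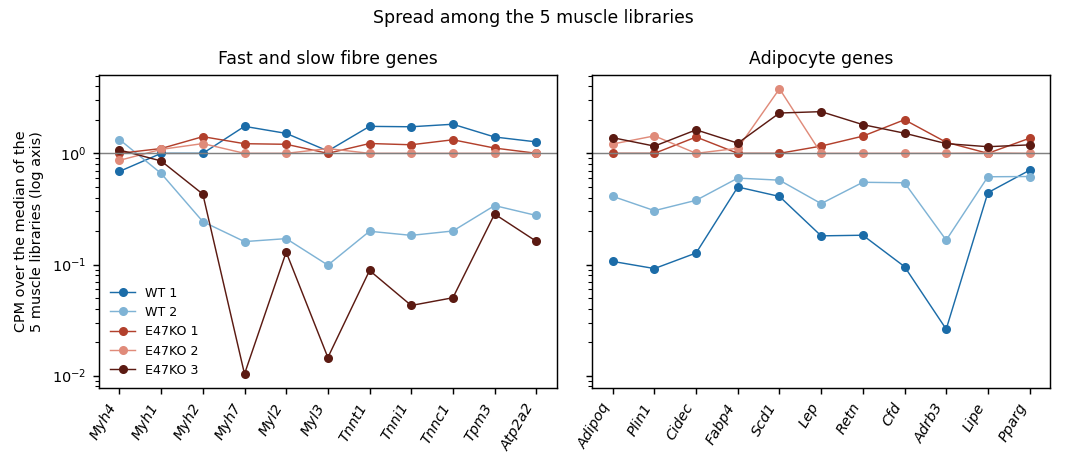
CPM in each muscle library over the median of the 5 muscle libraries (log axis), for fast and slow fibre genes on the left and adipocyte genes on the right; each line joins the values of 1 library across genes. WT 2 and E47KO 3 fall below the others for Myh2 and every slow-fibre gene drawn, and the 2 WT libraries lie lowest for every adipocyte gene drawn. Lpl, a member of the adipocyte list, is not drawn, and Scd1, from the triglyceride storage list, is.

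Calcium release and its electrical trigger followed the sarcomere. All 19 genes of excitation-contraction coupling and calcium handling were higher in muscle, with a median log2 fold change of 11.08 and no overlap for 18, the exception being Atp2a2. That gene no longer passed in 7 of the 9 fits that left out 1 library, nor with library totals. Ryr1, the calcium release channel of the sarcoplasmic reticulum, was at 8079, 7930, 7782, 7352 and 7835 CPM in muscle and 0.903, 0.718, 1.29 and 0.558 CPM in WAT, a log2 fold change of 13.13 ± 0.31. Cacna1s, the voltage sensor that opens it, differed by 13.98 ± 0.26 on the log2 scale. Pvalb, the calcium buffer of fast fibres, was at 5746 to 8834 CPM against 0.941 to 1.96 CPM. These 3 genes varied little among muscle libraries. Sarcolipin (Sln), which uncouples the calcium pump, was low, at 4.92, 14.2, 5.05, 3.49 and 5.58 CPM in muscle, and at least 117-fold higher than in WAT.

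At the neuromuscular junction 9 of 11 genes were higher in muscle, 1 was higher in WAT and 1 did not pass (median 6.64, or 5.44 with 1 gene at its bound). Chrna1, the acetylcholine receptor subunit that binds the transmitter, was at 31.6, 24.1, 30.5, 27.7 and 29.4 CPM in muscle and 0.0205 to 0.0785 CPM in WAT (log2 fold change 8.80 ± 0.20). Musk, the receptor kinase that clusters these receptors, differed by 6.67 ± 0.37. Utrophin (Utrn), the dystrophin relative found at the junction and in many other cells, went the other way, at 37.96, 31.6, 54.9, 49.2 and 35.8 CPM in muscle and 143, 120, 161 and 148 CPM in WAT. All WAT libraries were above all muscle libraries, with a log2 fold change of -1.82 ± 0.13 (adjusted p = 5.51e-07). Colq, the collagen tail of acetylcholinesterase, did not pass (0.77 ± 0.39, adjusted p = 0.0879).

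Of 17 myogenic transcription factors, 16 were higher in muscle and 1 higher in WAT. Myod1, a bHLH factor that dimerizes with E proteins to drive muscle genes, was at 18.4, 11.5, 14.5, 13.6 and 29.9 CPM in muscle and 0 in every WAT library, at least 310-fold higher in muscle. Myf6 (MRF4), the member of that family most expressed in adult fibres, was at 59.8 to 94.8 CPM and at least 1292-fold higher, and Myog, myogenin, at 5.44 to 15.8 CPM and at least 163-fold higher. Vgll2, a cofactor of TEAD proteins, was at least 958-fold higher, and Mef2c, the MADS-box partner of MyoD, differed by 5.33 ± 0.20 on the log2 scale. Tead4 was higher in WAT (-1.02 ± 0.23, adjusted p = 1.90e-03), with overlap. The list's median was 5.33, or 5.27 with its 5 genes near 0 in WAT at their bound. Pax7, the mark of satellite cells, was at 2.29 to 3.46 CPM in muscle and 0 in WAT, at least 46.1-fold higher, and all 5 satellite cell genes were higher in muscle.

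E proteins and their partners bind the E-box CANNTG, and MyoD with an E protein often uses the form CAGCTG. RefSeq promoter windows (GRCm38.p6, 250 bases before to 50 after the start) are shown for a pair of muscle genes and a pair of fat genes that differed strongly, picked after their letters and levels had been seen, so that the letters can be read beside the levels. Every CANNTG is in capitals, both motifs read the same on either strand, and CAGCTG is counted among the CANNTG. Chrna1 (chr2:73580289-73580588, minus strand) holds 3 E-boxes, 2 of them CAGCTG. Myh4 (chr11:67237562-67237861, plus strand) holds 3 and 1, Adipoq, which encodes adiponectin (chr16:23146286-23146585, plus strand), holds 1 and 1, and Plin1, which encodes perilipin 1 (chr7:79732727-79733026, minus strand), holds 3 and 1.
Chrna1: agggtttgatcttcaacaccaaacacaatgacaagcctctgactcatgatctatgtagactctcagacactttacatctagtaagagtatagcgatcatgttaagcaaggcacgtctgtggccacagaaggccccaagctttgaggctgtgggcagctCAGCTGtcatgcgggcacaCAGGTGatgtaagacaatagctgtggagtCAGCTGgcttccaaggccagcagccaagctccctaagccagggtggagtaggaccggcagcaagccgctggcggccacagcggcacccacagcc
Myh4: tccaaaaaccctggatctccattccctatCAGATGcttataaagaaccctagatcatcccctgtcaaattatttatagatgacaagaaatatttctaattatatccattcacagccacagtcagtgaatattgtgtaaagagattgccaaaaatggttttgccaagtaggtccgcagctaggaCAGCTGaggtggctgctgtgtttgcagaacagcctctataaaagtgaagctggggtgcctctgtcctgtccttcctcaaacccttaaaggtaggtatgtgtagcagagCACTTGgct
Adipoq: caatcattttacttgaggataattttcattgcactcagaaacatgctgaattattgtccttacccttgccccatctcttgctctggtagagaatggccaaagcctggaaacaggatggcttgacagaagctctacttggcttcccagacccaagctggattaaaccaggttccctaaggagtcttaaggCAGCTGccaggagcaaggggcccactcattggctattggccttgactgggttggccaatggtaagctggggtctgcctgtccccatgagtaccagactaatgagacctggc
Plin1: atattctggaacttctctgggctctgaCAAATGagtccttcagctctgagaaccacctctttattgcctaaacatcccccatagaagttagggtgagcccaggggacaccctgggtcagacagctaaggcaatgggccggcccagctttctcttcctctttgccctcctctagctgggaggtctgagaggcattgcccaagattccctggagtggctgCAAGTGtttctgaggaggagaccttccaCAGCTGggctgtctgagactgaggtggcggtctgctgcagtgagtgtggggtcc

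The letters occur on both sides of the comparison. Of the 32851 RefSeq promoters of this length 72.3% hold a CANNTG and 16.3% a CAGCTG, and of the 27025 genes 74.99% and 18.3% have such a promoter. CAGCTG was present for 8 of the 10 muscle fibre genes with an entry (12 listed), 11 of 25 sarcomere genes (34 listed), 4 of 8 adipocyte genes (11 listed), 5 of 16 triglyceride storage genes (25 listed) and 1 of 10 lipolysis genes (13 listed). A match is a description of letters in this window, and no binding was measured in these tissues.

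Fuel use separated the tissues next. All 20 glycogen and glycolysis genes were higher in muscle, with a median log2 fold change of 4.02 and no exception. Pygm, muscle glycogen phosphorylase, was at 8601 to 13086 CPM against 2.57 to 3.20 CPM (11.85 ± 0.25), and Pfkm, the muscle phosphofructokinase, differed by 8.92 ± 0.20. Hk2, the insulin-responsive hexokinase, was at 689, 459, 438, 627 and 703 CPM against 85.7, 91.0, 61.6 and 92.1 CPM, without overlap. Gys1, glycogen synthase, differed by 2.81 ± 0.09, and Gapdh, often taken as a constant reference gene, by 3.03 ± 0.17. All 19 genes of the TCA cycle and pyruvate dehydrogenase were also higher in muscle, by less: their median was 1.73, citrate synthase (Cs) differed by 2.10 ± 0.09 and Pdha1, the catalytic subunit of pyruvate dehydrogenase, by 2.96 ± 0.11.

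Mitochondrial fatty acid oxidation was mixed, with 10 of 16 genes higher in muscle, 3 higher in WAT and 3 not passing. Its median was 0.43. With library totals as the scale 6 were higher in muscle and 9 higher in WAT (median -0.46). Hadha, the long-chain trifunctional enzyme, was higher in muscle (2.01 ± 0.13), and Acads, which acts on short chains, was higher in WAT (-0.55 ± 0.09). Cpt1b, the muscle form of the enzyme that admits fatty acids to mitochondria, differed by 5.24 ± 0.31, but at only 2.06 to 4.43 CPM in muscle, and 81.4% of its exon bases are shared with Gm44502. Uncoupling proteins split: Ucp3 was at 558, 702, 740, 531 and 717 CPM in muscle against 17.2, 27.2, 25.5 and 13.6 CPM in WAT (4.96 ± 0.26), whereas Ucp2 was at 12.1, 18.7, 14.6, 20.2 and 20.5 CPM against 282, 216, 211 and 226 CPM (-3.77 ± 0.18). Ucp1, the mark of brown and beige fat, was at no more than 0.0982 CPM in any of the 9 libraries and was not tested. Ppargc1a, the coactivator PGC-1α that drives mitochondrial biogenesis, was at 157, 51.3, 109, 119 and 69.7 CPM in muscle and 2.53 to 4.06 CPM in WAT (4.86 ± 0.36), and its 2 lowest muscle libraries were again WT 2 and E47KO 3.

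Related genes traded places between the tissues. In 25 pairs of a muscle-type gene and a related gene, every muscle-type gene was higher in muscle and 24 of the 25 others were higher in WAT, the exception being Akt1, which was higher in muscle by 0.38 ± 0.09 and lower with library totals as the scale. These ratios are of CPM per kb of exon within a library and do not change with the scaling. Pygm over Pygl, the liver-type phosphorylase, was 2918 to 9652 in muscle and 0.0382 to 0.0555 in WAT. Ckm over Ckb, the brain-type creatine kinase, was 2962 to 6291 against 0.0219 to 0.0373. For both pairs the dominant member was therefore a different gene in each tissue. Cox7a1 over Cox7a2, forms of a cytochrome oxidase subunit, was 2.35 to 2.79 against 0.0171 to 0.0228, and Slc25a4 over Slc25a5, the mitochondrial ADP/ATP carriers, 70.6 to 80.4 against 0.558 to 0.623. Fabp3 over Fabp4, the muscle and adipocyte fatty acid binding proteins, was 4.05 to 14.2 against 2.52e-05 to 1.11e-04. In 4 pairs the muscle-type member led in both tissues: Hk2 over Hk1 was 78.2 to 118 against 5.54 to 9.14, Slc2a4 over Slc2a1, the glucose transporters GLUT4 and GLUT1, 51.4 to 104 against 6.22 to 6.86, Acacb over Acaca, the acetyl-CoA carboxylases, 43.4 to 67.2 against 1.66 to 2.95, and Akt2 over Akt1 2.70 to 3.28 against 1.11 to 1.41. Cpt1a led over Cpt1b in both tissues, with Cpt1b over Cpt1a at 0.212 to 0.594 in muscle and 2.34e-03 to 4.83e-03 in WAT. The counts of Cpt1b are uncertain, since 81.4% of its exon bases are shared. Cav3 over Cav1, the caveolins, was 0.577 to 1.01 in muscle and 2.78e-05 to 6.52e-05 in WAT.

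**Figure D3:**
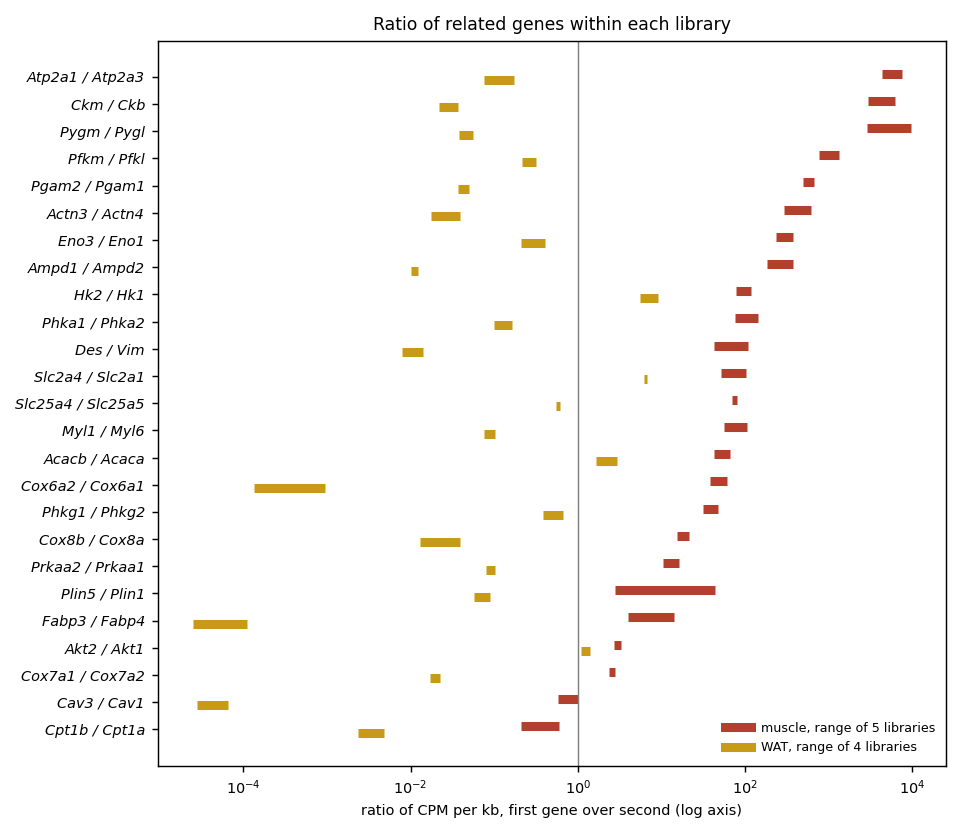
Ratio of CPM per kb of exon of 2 related genes within a library (log axis), muscle-type gene first; bars span the lowest to the highest of the 5 muscle (red) and 4 WAT (yellow) libraries, and the grey line marks a ratio of 1. The bars of the tissues do not overlap for any of the 25 pairs, and most lie on opposite sides of 1. In muscle, Cav3 over Cav1 and Cpt1b over Cpt1a are the lowest ratios and the only ones to reach below 1.

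Lipid storage was the mirror image. Of 25 genes of triglyceride storage and fatty acid synthesis, 21 were higher in WAT (84%, beside 43.6% of all genes) and 4 higher in muscle, with a median log2 fold change of -3.35. Fabp4, the fatty acid carrier of adipocytes, was at 193, 232, 388, 430 and 478 CPM in muscle against 21229, 21595, 19954 and 18736 CPM in WAT (-6.03 ± 0.26, adjusted p = 1.52e-08). Scd1, the desaturase that makes oleate, was at 114, 160, 279, 1063 and 644 CPM against 18206, 32371, 22046 and 41994 CPM (-6.50 ± 0.59). Plin1, which coats the lipid droplet, was at 1.42, 4.70, 15.4, 22.1 and 17.9 CPM against 387, 276, 365 and 311 CPM (-5.31 ± 0.55). No muscle library reached any WAT library for these genes. Cidec, which fuses droplets, differed by -6.91 ± 0.62, Fasn, fatty acid synthase, by -4.72 ± 0.29, and Lpl, which frees fatty acids from lipoproteins, by -3.35 ± 0.43. The 4 genes higher in muscle were Gpam (3.32 ± 0.19) and Lpin1 (2.06 ± 0.19), both enzymes of glycerolipid synthesis, and Gpd1 (0.54 ± 0.14) and Me1 (0.34 ± 0.13), the last 2 lower in muscle with library totals as the scale.

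Lipolysis genes were higher in WAT for 12 of 13 and 1 did not pass, with a median of -4.83, or -4.46 with 1 gene at its bound. Lipe, hormone-sensitive lipase, was at 24.0 to 62.2 CPM in muscle against 854 to 979 CPM in WAT (-4.46 ± 0.21), and Pnpla2, the triglyceride lipase ATGL, at 532 to 671 against 2525 to 2689 CPM (-2.13 ± 0.10). Adrb3, the β3-adrenergic receptor of fat, was at 0.145, 0.915, 6.94, 5.52 and 6.75 CPM in muscle against 211, 188, 445 and 183 CPM. No muscle library reached a WAT library for these 3 genes.

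Of 15 adipokines 14 were tested, and 11 were higher in WAT, 2 higher in muscle and 1 did not pass (median -5.44). Adipoq was at 6.68, 25.7, 62.7, 76.0 and 86.7 CPM in muscle against 1668, 1807, 2511 and 2007 CPM in WAT (-5.75 ± 0.50). Lep, leptin, was at 2.11, 4.12, 13.6, 11.7 and 27.7 CPM against 1178, 994, 648 and 890 CPM (-6.77 ± 0.67), and Retn, resistin, differed by -8.02 ± 0.52. The muscle values of these hormones followed the other adipocyte genes, lowest in the 2 WT libraries and higher in the 3 E47KO libraries. Angptl4, a fasting- and glucocorticoid-induced inhibitor of lipoprotein lipase, was at 11.4 to 56.4 CPM against 990 to 1211 CPM (-5.31 ± 0.38). Nampt (0.57 ± 0.13), which makes an NAD precursor and turned under library totals, and Lcn2, lipocalin 2 (1.15 ± 0.29), were higher in muscle. Among 12 adipogenic transcription factors 8 were higher in WAT, 3 higher in muscle and 1 did not pass, with a median of -1.17. The core pair of adipocyte identity, Pparg (-3.93 ± 0.22) and Cebpa (-5.28 ± 0.43), was higher in WAT, and Klf15 (1.91 ± 0.15), a metabolic factor induced by glucocorticoids, was higher in muscle.

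The summed level of the 11 adipocyte genes, Lpl among them, was 1052, 618, 2022, 1972 and 1336 CPM in muscle. All 3 E47KO libraries lay above both WT libraries. The sum was lowest in WT 2, whereas WT 1 was the lowest muscle library for 9 of the 11 genes and WT 2 for 2. Genes at high level weigh most in such a sum, so it need not follow adipocyte RNA. How far adipocyte RNA in the muscle pieces enters the muscle values of other genes was not tested. All 11 adipocyte genes were higher in WAT, and all 12 muscle fibre genes were higher in muscle.

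**Figure D4:**
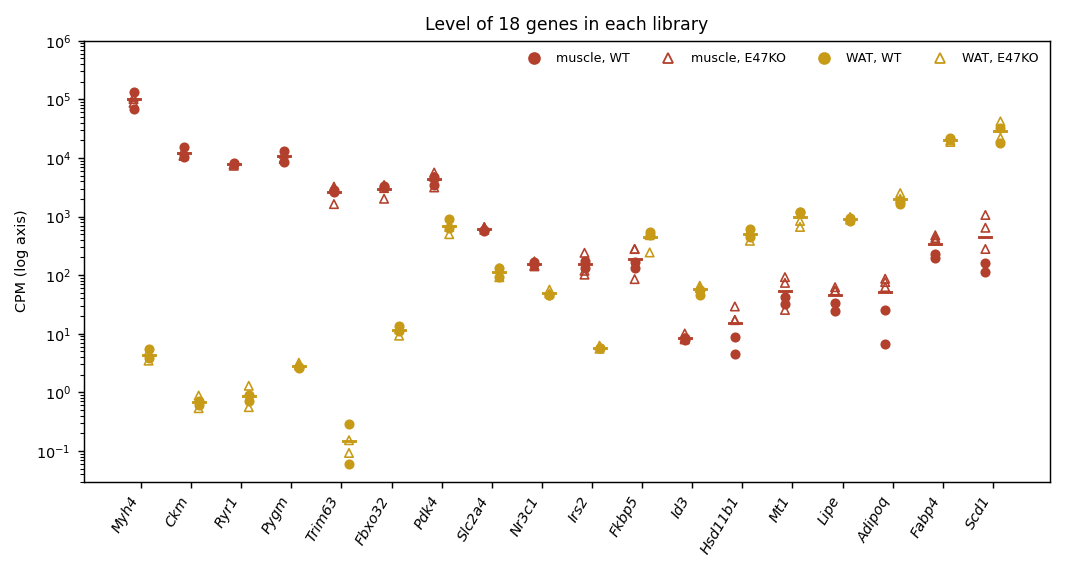
CPM (log axis) of 18 genes in each library, muscle in red and WAT in yellow, filled circles WT, open triangles E47KO, short bars the mean of a tissue. Muscle lies above WAT from Myh4 to Irs2 and WAT above muscle from Id3 to Scd1; for Fkbp5 the tissues overlap.

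Both tissues carried the machinery of glucocorticoid action, in different proportions. Nr3c1, which encodes GR, was at 155, 169, 171, 146 and 141 CPM in muscle and 45.8, 46.05, 56.5 and 48.5 CPM in WAT. Every muscle library lay above every WAT library, 3.18-fold on the fitted means (log2 1.67 ± 0.10, adjusted p = 1.28e-07). Nr3c2, the mineralocorticoid receptor, which also binds glucocorticoids, was lower in level per kb but differed more, by 2.86 ± 0.17. Hsd11b1, the enzyme that regenerates active corticosterone inside cells, went the other way, at 4.48, 8.66, 17.1, 17.2 and 29.2 CPM in muscle and 442, 608, 386 and 567 CPM in WAT (-5.32 ± 0.43). In muscle, Hsd11b1 was lowest in the 2 WT libraries, the order of the adipocyte genes. H6pd, which supplies its cofactor, was also higher in WAT (-2.25 ± 0.11), so the receptor gene and these 2 genes were ordered oppositely. The mice received Dex, itself a ligand of GR, and corticosterone regeneration in these tissues was not measured. Of 17 genes for GR and its cofactors, 11 were higher in muscle, 4 higher in WAT and 2 did not pass, with a median of 0.81. With library totals 6 were higher in muscle and 7 higher in WAT (median -0.088). Hsp90ab1, a chaperone of GR, differed by 2.53 ± 0.14.

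Known GR target genes did not share a direction. Of 20 tested, 8 were higher in muscle, 9 higher in WAT and 3 did not pass, with a median of -0.60 beside -0.11 over all genes. With library totals 5 were higher in muscle, 13 higher in WAT and 2 did not pass (median -1.50). Fkbp5, a chaperone of GR that it also induces, was at 166, 131, 279, 85.5 and 280 CPM in muscle and 481, 554.3, 244 and 480 CPM in WAT. It was higher in WAT on the means (-1.24 ± 0.38, adjusted p = 1.18e-02), but WAT E47KO 2 lay within the muscle range. Tsc22d3 (GILZ) was at 485, 648, 380, 449 and 429 CPM against 431, 405, 285 and 403 CPM, with overlap (0.35 ± 0.13, adjusted p = 2.78e-02), and its direction turned under library totals. Pdk4, which blocks pyruvate oxidation in fasting, was at 3401, 4635, 5628, 3136 and 4748 CPM against 635, 921, 499 and 660 CPM (2.69 ± 0.24). Klf9 (3.11 ± 0.14) and Zbtb16 (2.69 ± 0.19), both transcription factors, were also higher in muscle. The metallothionein Mt1 was at 41.8, 31.6, 92.4, 25.5 and 73.7 CPM against 1203, 1207, 664 and 842 CPM (-4.24 ± 0.43), and Dusp1, a MAP kinase phosphatase, differed by -0.85 ± 0.17.

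Beneath the tissue difference, the GR target genes varied together among the libraries of a tissue. WAT E47KO 2 was the lowest WAT library for 17 of the 20 genes (85%), among them Fkbp5, Tsc22d3, Pdk4, Klf9, Zbtb16, Mt1 and Dusp1, beside 27.7% of all 16398 genes. Muscle E47KO 2 was the lowest muscle library for 13 of the 20 (65%), beside 23.2% of all genes, and for 10 of 15 atrophy genes. In WAT this held for genes higher in muscle, such as Pdk4 and Klf9, and for genes higher in WAT, such as Fkbp5 and Mt1. Without both libraries the 20 targets stood at 7 higher in muscle, 11 higher in WAT and 2 not passing, against 8, 9 and 3 with them.

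In the atrophy programme the ubiquitin ligase genes Trim63 and Fbxo32 stood far higher in muscle. Of the 15 genes of the programme 10 were higher in muscle and 5 higher in WAT, with a median of 0.92. With library totals as the scale 5 were higher in muscle, 6 higher in WAT and 4 did not pass (median 0.03). Trim63 (MuRF1), which marks sarcomere proteins for degradation, was at 2889, 2615, 2939, 1630.5 and 3238 CPM in muscle and 0.0589, 0.287, 0.0923 and 0.152 CPM in WAT (14.14 ± 0.44). Fbxo32 (atrogin-1), its partner ligase, was at 3176, 3268, 3449, 2011 and 3056 CPM against 11.1, 13.4, 11.9 and 9.27 CPM (8.05 ± 0.23). E47KO 2 was the lowest muscle library for both genes and the tissues did not overlap. Mstn, myostatin, was at least 897-fold higher in muscle. The FOXO factors that drive this programme differed less: Foxo3 by 1.13 ± 0.16 and Foxo1 by 0.82 ± 0.21, the latter turning under library totals. The 5 higher in WAT were the ubiquitin ligase subunit Fbxo21 (-1.98), Ctsl, cathepsin L (-1.17), the autophagy genes Gabarapl1 (-1.17) and Bnip3 (-0.75), and Eif4ebp1 (-0.67), a brake on translation. Other autophagy genes of the list, Sqstm1 (1.83) and Map1lc3b (0.57), were higher in muscle, the latter turning under library totals.

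Insulin signalling favoured muscle for 11 of 16 genes, with 3 higher in WAT and 2 not passing, and a median of 0.81. With library totals as the scale 5 were higher in muscle and 6 higher in WAT (median -0.084). Slc2a4, the insulin-responsive glucose transporter GLUT4, was at 595, 565, 661, 594 and 656 CPM in muscle and 92.9, 134, 92.1 and 131 CPM in WAT (2.44 ± 0.15). Irs1, an adaptor of the insulin receptor, was at 39.9, 39.8, 58.0, 40.5 and 40.7 CPM against 2.75, 2.81, 4.47 and 2.23 CPM (3.82 ± 0.21). Of its exon bases, 30.9% are shared with Gm9747. Irs2 was at 175, 134, 102, 119 and 240 CPM against 5.79, 5.62, 5.54 and 6.24 CPM (4.73 ± 0.28). The receptor itself, Insr, differed by only 0.53 ± 0.15 and turned under library totals, and the kinase Akt2 differed by 1.69. Trib3, an inhibitor of AKT, was higher in WAT (-3.09 ± 0.19), as was the adaptor Grb10 (-1.14 ± 0.12).

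The clock genes leaned to muscle, with 15 of 19 higher in muscle, none higher in WAT and 4 not passing (median 1.54). With library totals 11 were higher in muscle and 5 higher in WAT (median 0.63), and without muscle E47KO 1, or without muscle E47KO 2, 2 were higher in WAT. Arntl (BMAL1) differed by 1.51 ± 0.22 and its repressor Nr1d1 (REV-ERBα) by 1.54 ± 0.20, so activator and repressor were both higher in muscle. Clock, the partner of BMAL1, did not pass (-0.28, adjusted p = 0.275), but was called higher in WAT with library totals, with the replicate block, in WT libraries alone and without muscle E47KO 1. Tissues were taken at the end of the glucose test, and no other time of day was sampled here.

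With TMM scaling the E proteins differed by at most 0.24 on the log2 scale and their inhibitors by more. With library totals all 7 genes of this group were higher in WAT (median -1.61), and upper-quartile scaling also put Tcf3 and Tcf4 higher in WAT. Tcf3, the E47 and E12 gene, was at 11.6, 13.98, 11.9, 14.4 and 15.7 CPM in muscle and 15.98, 14.6, 15.1 and 14.1 CPM in WAT (-0.15 ± 0.11, adjusted p = 0.211), and Tcf4 at 45.6 to 56.4 CPM against 49.2 to 51.6 CPM (-0.03 ± 0.07, adjusted p = 0.765). Tcf12 was slightly higher in muscle, at 38.1 to 44.5 CPM against 32.7 to 37.7 CPM (0.24 ± 0.08, adjusted p = 0.0125), and lower with library totals as the scale. All 4 Id genes, whose products bind E proteins and keep them off DNA, were higher in WAT. Id3 was at 7.96, 8.36, 8.41, 8.01 and 10.1 CPM in muscle and 46.6, 55.9, 60.1 and 65.8 CPM in WAT, 6.73-fold apart without overlap (-2.75 ± 0.10, adjusted p = 4.00e-09). Id2 differed by -1.59 ± 0.20, Id4 by -0.81 and Id1 by -0.71 ± 0.19, the last 2 with overlap. Id4 did not pass in DESeq2 or without WAT WT 2, WAT E47KO 2 or muscle WT 1.

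The Hox genes, transcription factors whose order on the chromosome matches where they are expressed from head to tail, divided the tissues. Of 39 listed, 31 were tested, and 8 were higher in muscle, 19 higher in WAT and 4 did not pass (median -1.23). Those higher in muscle were mostly the posterior genes of the A and C clusters. Hoxc10 was at 83.0, 98.3, 69.3, 82.8 and 91.2 CPM in muscle and 0, 0.0205, 0 and 0.0338 CPM in WAT, at least 1500-fold higher in muscle. Hoxa10 was at 13.6, 14.96, 14.2, 13.8 and 14.9 CPM against 0.0589, 0.0615, 0.0923 and 0.152 CPM (7.21 ± 0.20). Hoxa9 differed by 4.24 ± 0.14, Hoxc9 by 1.45 ± 0.15, and Hoxa11, Hoxa13 and Hoxc11 were at least 11.8-fold, 14.3-fold and 89.2-fold higher in muscle. Hoxa4 was the other gene higher in muscle (1.06). In the same cluster, Hoxc8 was ordered the other way, at 3.47, 3.50, 5.51, 4.17 and 3.68 CPM in muscle and 32.5, 35.7, 37.8 and 31.9 CPM in WAT (-3.11 ± 0.13). All 8 tested genes of the B cluster were higher in WAT, among them Hoxb5 (-3.46 ± 0.20) and Hoxb8 (-3.93 ± 0.35). The tested D genes were also higher in WAT, including Hoxd9 (-1.64 ± 0.18). For Hoxb3, Hoxd3 and Hoxd4 52.3% to 62.8% of the exon bases are shared with other genes of the annotation, so their counts are uncertain. For Hoxa11 35.0% are shared with Hoxa11os.

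**Figure D5:**
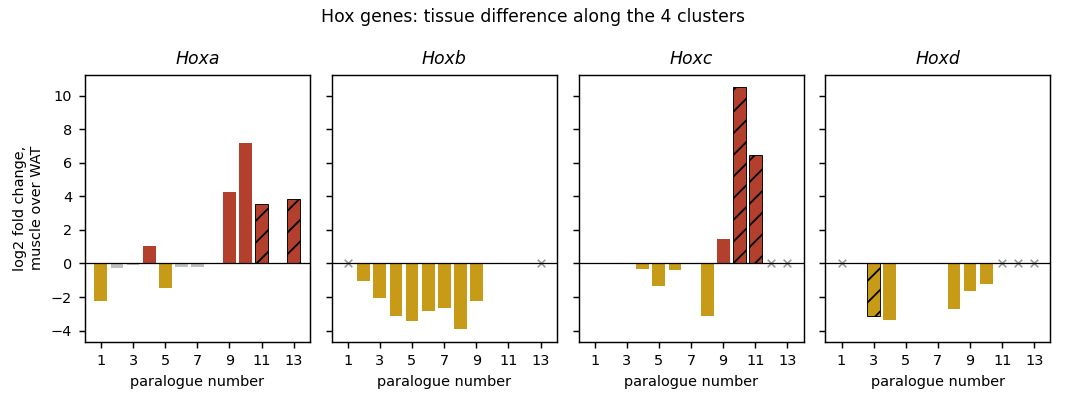
Log2 fold change of muscle over WAT for the Hox genes of the 4 clusters by paralogue number; red bars are higher in muscle, yellow higher in WAT, grey did not pass an adjusted p of 0.05, crosses were not tested, and hatched bars are lower bounds. Muscle-high bars stand at numbers 9 to 13 of Hoxa and 9 to 11 of Hoxc besides Hoxa4, while Hoxb and Hoxd bars all point to WAT.

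Other positional factors showed gaps as wide. Tbx15, a T-box factor of fast fibres that is also used in some fat depots, was at 350, 346, 362, 298 and 418 CPM in muscle and 0.0982, 0.0410, 0.203 and 0.101 CPM in WAT (11.58 ± 0.27). Tbx4, the hindlimb T-box factor, was at 2.42 to 2.84 CPM against 0.118 to 0.388 CPM (3.55 ± 0.29). Wt1, which marks visceral fat progenitors and mesothelium, was at 0 in every muscle library and at 7.44, 14.8, 17.1 and 12.3 CPM in WAT, at least 141-fold higher in WAT, and Tcf21, a visceral mesenchyme factor, was at least 21.3-fold higher in WAT. Of 14 tested factors 5 were higher in muscle, 8 higher in WAT and 1 did not pass.

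The extracellular matrix was richer in WAT. Of 32 genes 23 were higher in WAT, 5 higher in muscle and 4 did not pass (median -2.12), and their summed level was 1903 to 2768 CPM in muscle and 7842 to 9203 CPM in WAT. Sparc, a collagen-binding protein, was at 273, 257, 197, 304 and 305 CPM against 2512, 2965, 2928 and 3157 CPM (-3.44 ± 0.15). The basement membrane collagen Col4a1 differed by -2.99 ± 0.14, and Col3a1, of fibrillar collagen, was at 18.02 to 62.5 CPM against 197 to 381.5 CPM (-3.20 ± 0.33). Col22a1, a collagen of muscle-tendon junctions, was at 23.1 to 33.1 CPM in muscle against 0.0369 to 0.254 CPM (7.26 ± 0.29), and Lama2, the laminin chain of the muscle fibre membrane, differed by 1.97 ± 0.19. Lamc1, the laminin γ1 chain used in both tissues, did not pass, at 115 to 138 CPM against 119 to 147 CPM (-0.01 ± 0.09, adjusted p = 0.909).

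Markers of other cells divided the tissues too. All 14 macrophage genes were higher in WAT (median -3.39), their sum being 82.5, 160, 141, 195 and 118 CPM in muscle and 1126, 913, 1812 and 969 CPM in WAT. Trem2, a receptor of lipid-associated macrophages, was at 0.0579 to 0.172 CPM against 16.6, 7.77, 19.7 and 7.71 CPM (-6.67 ± 0.43). All 10 mesothelial genes were higher in WAT, their sum being 1.29 to 2.97 CPM in muscle and 130, 256, 400 and 212 CPM in WAT, with Upk3b at least 890-fold higher. Complement was higher in WAT for 8 of 9 genes, among them C3 (-1.90 ± 0.32). Satellite, tendon and smooth muscle markers leaned to muscle: tendon genes summed to 244, 220, 101, 385 and 71.9 CPM in muscle and 16.6 to 49.0 CPM in WAT, and smooth muscle and pericyte genes were higher in muscle for 5 of 8 (4 of 8, with 2 higher in WAT, under library totals). Schwann cell genes were higher in muscle for 5 of 7, but their sum leaned to WAT. It was 83.3, 62.2, 71.9, 138 and 93.6 CPM in muscle and 131, 129, 132 and 110.6 CPM in WAT. Endothelial genes were divided, 2 of 12 higher in muscle, 7 higher in WAT and 3 not passing (median -0.49, and 0, 11 and 1 under library totals), and their sum was 522 to 745 CPM in muscle and 886 to 1168 CPM in WAT. All 7 erythroid genes were higher in WAT (median -2.53), their sum being 120 to 311 CPM in muscle and 622 to 1310 CPM in WAT, and the part of blood in other differences was not tested. Adipose progenitor and fibroblast genes were higher in WAT for 6 of 9. T cell genes summed to no more than 1.73 CPM in any library, and 2 of 8 passed the filter. Liver genes passed for 2 of 16, with Cyp2e1, which adipocytes also express, at 9.37 to 171 CPM in muscle and 3298 to 6582 CPM in WAT. That count rested on 1 library: without muscle WT 2, 12 of 15 liver genes were higher in WAT (median -3.05, beside -0.76 with it), and without muscle WT 2 and E47KO 3, 15 of 16. Alb, albumin, was at 1.48, 171, 0.782, 1.03 and 9.35 CPM in muscle against 16.9, 61.2, 49.4 and 46.2 CPM, with overlap (adjusted p = 0.330). Of 8 B cell genes 1 was tested and did not pass.

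Among secreted factors, myokines were split, with 6 of 11 higher in muscle, 4 higher in WAT and 1 not passing (median 0.75, and -0.13 with library totals as the scale). Fndc5, the irisin precursor, was at 35.3 to 75.9 CPM in muscle against 0.0196 to 1.01 CPM in WAT (7.07 ± 0.54). Igf1, which promotes muscle growth, was higher in WAT, at 8.07, 23.0, 12.2, 11.6 and 15.8 CPM against 108, 131, 130 and 120 CPM (-3.11 ± 0.26). Fgf21, an endocrine growth factor, was at 1.27 to 1.44 CPM in WAT and at least 14.9-fold higher there. Of 13 thermogenic and brown fat genes 11 were tested, 7 higher in muscle, 3 higher in WAT and 1 not passing.

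Ranked over all genes with at least 10 CPM in the higher tissue, the 10 widest gaps towards muscle took in genes of several roles. Besides Xirp2, Atp2a1, Myh4, Trim63 and Vgll2 they held Nctc1, a non-coding transcript, at 150, 162, 157, 134 and 152 CPM against 0 in all WAT libraries and at least 2667-fold higher, Nmrk2, a kinase that makes an NAD precursor (at least 1856-fold), Klhl40, which stabilizes thin filaments (at least 2966-fold), and the relatives of MuRF1 Trim54 (at least 4359-fold) and Trim55 (at least 969-fold). Towards WAT they were Wt1, Upk3b and Upk1b (at least 320-fold) of mesothelium, Lrrn4 (-7.87 ± 0.65), Lama1 (at least 196-fold), a laminin chain, Cela1 (-8.64 ± 0.31), an elastase, Cacna1e (-7.97 ± 0.38), a calcium channel, Gm5460 (at least 122-fold), Retn, and Hp (-7.81 ± 0.47), haptoglobin. None of these 10 is an enzyme of triglyceride storage. Among genes with at least 10 CPM in both tissues, Pde4dip, the scaffold myomegalin (8.76 ± 0.18), and Flnc, filamin C (8.25 ± 0.26), stood beside Acta1, Pfkm, Tpm2, Des, Fbxo32, Eno3, Tpm1 and Myl1 on the muscle side. Cdo1, a cysteine dioxygenase (-6.84 ± 0.46), Nnat, neuronatin (-6.74 ± 0.72), and Thrsp, a lipogenic factor (-6.04 ± 0.26), stood on the WAT side beside Retn, Hp, Cidec, Lep, Scd1, Cyp2e1 and Fabp4.

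By level per kb of exon, the mitochondrial transcript mt-Co1 came first in both tissues. In CPM per kb, mt-Co1 averaged 28120 in muscle and 13536 in WAT and mt-Cytb 20092 and 9262. The highest nuclear genes were Acta1 (25270, between those 2), Myh4 (16618), Tnnt3 (15752) and Atp2a1 (13602) in muscle, and Scd1 (5857), Hp (5247), Car3, carbonic anhydrase 3 (4742), Fabp4 (4540) and Cfd, adipsin (4516), in WAT. Muscle thus put contractile genes at levels per kb among those of its highest mitochondrial transcripts. In WAT the desaturase, the lipid carrier and the secreted proteins lay well below mt-Co1 and mt-Cytb. They lay between mt-Nd1 (6830) and mt-Nd4 (4159). Mitochondrial transcripts took 8.70% to 11.7% of counts in muscle and 6.31% to 9.42% in WAT.

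No gene passed the test of whether the tissue difference depended on genotype. For the difference of the E47KO effects between muscle and WAT, 0 of 16398 genes passed (0%), and 655 had an unadjusted p under 0.05, where 819.9 would by chance. DESeq2 called 73. The gene with the smallest p was Negr1, a neuronal adhesion protein, at 0.260, 0.294, 1.53, 1.63 and 1.55 CPM in muscle and 16.6, 16.4, 22.4 and 22.3 CPM in WAT (difference of log2 effects 2.06 ± 0.22, adjusted p = 0.0644). Arxes2, an adipocyte gene, was next but 1, at 0.347, 0.915, 5.57, 3.80 and 5.14 CPM in muscle and 176, 187, 145 and 132 CPM in WAT (3.35 ± 0.40, adjusted p = 0.104). These 2 genes fall outside the rules by which genes were named, since neither passed, and the gene ranked between them is not named. Both were low in muscle, with the 3 E47KO libraries above the 2 WT libraries, the order also seen for the summed adipocyte level in muscle. Without muscle WT 2 the count was 27, and without muscle WT 2 and E47KO 3 it was 15.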

How the data were processed

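RNA was sequenced from quadriceps and epididymal WAT of WT and E47KO mice after 3 weeks of Dex. The authors deposited raw counts of reads per gene, 1 file per sample, indexed by mouse Ensembl identifiers. Per the study's methods the reads were mapped to mm10 and counted per gene with STAR 2.4.2a, while the processing notes of the submitters also name HTSeq. The libraries are unstranded per the labels, so reads of overlapping and antisense genes cannot be told apart. Entries that name no gene held 27.5% to 29.8% of counts in muscle and 30.9% to 33.7% in WAT and were left out. Deposited tables of the authors' own comparisons, with fold changes and p-values, were not used.

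Groups were taken from the sample labels. Symbols came from a GENCODE vM21 table for 45229 of 46078 identifiers, and promoters from RefSeq on GRCm38.p6. Counts were fitted with the quasi-likelihood test of edgeR 4.0.16 (R 4.3.3, limma 3.58.1), with tissue as the factor, genotype as a covariate, low genes filtered by tissue, TMM scaling (levels in CPM) and Benjamini-Hochberg adjustment over all genes tested. The difference of genotype effects was fitted with 4 group means. The p-values without a named tool are from these fits. The threshold was an adjusted p of 0.05. Fold changes are log2 values of muscle over WAT with their SE. Where every library of a tissue held 3 counts or fewer, the fold is a lower bound against 3 counts per library, and floors cover counting error only. Genes were named from the lists and as the 10 widest fitted gaps in each direction with at least 10 CPM in the higher tissue or in both. The members and lists were chosen with earlier results of these data known. Libraries of a group differed by 49.1 to 104.8 in chi-square per degree of freedom, so none was a repeat of another. The fits were also run on simulated counts with planted changes, and the outcome is not reported here. Alternatives were RLE, upper-quartile and total scaling, other filters, DESeq2 1.42.0, leaving out mitochondrial genes or each library, a replicate block, no covariate and each genotype alone. Some genes of the lists are not reported by name here.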

Additional observations from a re-analysis of the deposited data

Results flagged for a closer look

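Each gene named above, and the summed CPM of each list, was examined within a tissue for a library standing apart from the other libraries of that tissue (Dixon's ratio past its 95% critical value). Of 452 such groups 30 stood apart, and chance gives about 1 in 20. No explanation was tested for any of them.

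Muscle E47KO 2 stood apart most often. It was lowest for the summed atrophy programme, at 6215 CPM against 8689 to 9492 CPM in the other muscle libraries, and for Fbxo32, at 2011 CPM against 3056 to 3449 CPM. It was highest for summed extracellular matrix, at 2768 CPM against 1903 to 1988 CPM, for summed progenitor and fibroblast genes, at 304 CPM against 157 to 187 CPM, and for Col3a1, at 62.5 CPM against 18.02 to 27.9 CPM. It was also highest for Pax7, at 3.46 CPM against 2.29 to 2.58 CPM, for Tpm2, β-tropomyosin, at 7230 CPM against 5874 to 6026 CPM, and for mt-Co1, at 52946 CPM against 40143 to 43171 CPM.

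Muscle WT 2 was highest for Alb, at 171 CPM against 0.782 to 9.35 CPM, for Sln, at 14.2 CPM against 3.49 to 5.58 CPM, for summed myogenic factors, at 2396 CPM against 2127 to 2166 CPM, and for Tcf21, at 0.0653 CPM against 0 in the others, which is 3 counts or fewer. Muscle E47KO 1 was highest for Clock, at 77.5 CPM against 31.1 to 43.3 CPM, and for Irs1, at 58.0 CPM against 39.8 to 40.7 CPM. Muscle E47KO 3 was highest for Id3, at 10.1 CPM against 7.96 to 8.41 CPM.

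In WAT, E47KO 2 was highest for Adrb3, at 445 CPM against 183 to 211 CPM, and for Flnc, at 15.4 CPM against 9.66 to 9.99 CPM. It was lowest for Cdo1, at 1382 CPM against 1663 to 1715 CPM. WT 1 was lowest for summed glycogen and glycolysis genes, at 4132 CPM against 4650 to 4740 CPM, and for Des, at 13.3 CPM against 17.2 to 17.6 CPM, and highest for summed thermogenic genes, at 316 CPM against 261 to 270 CPM. E47KO 3 was lowest for summed Schwann cell genes, at 110.6 CPM against 129 to 132 CPM, and highest for summed germ cell genes of the testis, at 2.32 CPM against 0.0369 to 0.123 CPM. The other WAT values that stood apart are of genes near 0. Myl3 was at 0.129 CPM in E47KO 2 and Cav3 at 0.0393 CPM in WT 1. Klhl40 was at 0.0185 CPM in E47KO 2, Hoxa13 and Tnnc2 at 0.0196 CPM in WT 1, and Myog and Trim54 at 0.0169 CPM in E47KO 3, each at 0 in the other WAT libraries.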

How the results depend on the processing

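The number of genes that differed between the tissues lay between 13104 and 13428 with 1 library left out, 6266 to 6370 of them higher in muscle, 6796 to 7058 higher in WAT and 9144 to 9427 at least 2-fold apart. With library totals as the scale 3449 genes were higher in muscle. For the difference of the genotype effects, 0 genes passed with every library, 21 without a filter on low counts, 73 in DESeq2 and 0 to 27 with 1 library left out, the 27 without muscle WT 2. A fit without muscle WT 2 and E47KO 3, chosen after seeing the data, gave 15, and one without both E47KO 2 libraries, also chosen then, gave 0, with 777 at an unadjusted p under 0.05. The same replicate numbers occur in both tissues. Their libraries correlated in their deviations from the group means at 0.106 and 0.0532 (E47KO 2 and 3) and 0.215 (both WT numbers). With 2 WT libraries per tissue the deviations mirror each other, so both WT numbers must give the same value. No reference for unpaired libraries was computed, so these values cannot decide whether the numbers mark pairs. The main fits did not pair them. With a replicate block for each genotype and number, 13293 genes differed between the tissues. For the genotype effects the block was the replicate number alone, shared by both genotypes. There 0 passed, with 619 at an unadjusted p under 0.05.

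With library totals the median turned for mitochondrial fatty acid oxidation (-0.46), myokines (-0.13), insulin signalling (-0.084) and GR cofactors (-0.088). The same scale turned Nampt (-0.32), Akt1 (-0.51), Foxo1 (-0.072), Gpd1 (-0.36), Insr (-0.36), Tcf12 (-0.65), Tsc22d3 (-0.54), Me1 (-0.55), Map1lc3b (-0.32) and Colq (-0.11). That scale moved the median of all genes by -0.89. In WT libraries alone the medians of B cell (0.49) and hepatocyte genes (1.11), Alb (1.17), Colq (-0.070) and Lamc1 (0.16) turned, none of these genes passing. Tcf4 turned with RLE factors (0.030), in DESeq2 (0.031), in E47KO libraries alone (0.029) and without muscle WT 2 and E47KO 3 (0.081). Lamc1 turned with RLE factors (0.044), in DESeq2 (0.044), with the replicate block (0.0054), without muscle WT 2 and E47KO 3 (0.072) and without both E47KO 2 libraries (0.042). With 1 library left out Lamc1 lay between -0.055 and 0.060, Tcf4 between -0.055 and 0.033 and Tpm3 between -0.92 and -0.22. Tpm3 turned without muscle WT 2 and E47KO 3 (0.073). Neither Lamc1, Tcf4 nor Tpm3 passed in the fits that turned it.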
